A study of Mus musculus with 28 samples.

Results

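The glucocorticoid receptor gene Nr3c1 and 9 of its established target genes were followed in RNA from mouse lateral ventricle choroid plexus. The genes were taken by symbol from a list and matched to Entrez identifiers: Nr3c1, Fkbp5, Tsc22d3, Klf9, Zbtb16, Hif3a, Bcl6, Sgk1, Ddit4 and Cdkn1a. All 10 were found among the 27179 genes of the deposited count tables, and all 10 passed the filter on low counts in both young and aged libraries.

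The glucocorticoid receptor is a hormone-gated transcription factor that waits in the cytosol with heat shock protein chaperones. When it binds corticosterone, the main glucocorticoid of mice, it moves to the nucleus and binds DNA at glucocorticoid response elements beside its target genes. Corticosterone follows a daily rhythm that peaks near the start of the dark phase in nocturnal rodents, and it also rises with stress, so its target genes can report on both time of day and sleep disruption. The choroid plexus is the secretory epithelium of the brain ventricles that makes cerebrospinal fluid, and it is exposed to blood-borne hormone through fenestrated capillaries.

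The study set night against day, and sleep disruption against undisturbed day, in 28 libraries in 7 groups of 4, all from male mice that were perfused with PBS under isoflurane before dissection. Young wild-type C57/BL6 mice of 3 to 4 months formed batch 1: a day group at ZT6 (6 h after lights-on), a sleep-disruption group taken at ZT6 after 6 h of disruption, and a night group at ZT18. Mice of 12 to 14 months formed batch 2: J20+ mice at ZT6 and ZT18, and their wild-type littermates, labelled J20-, at the same times. The J20 line carries a human amyloid precursor protein transgene with familial Alzheimer's disease mutations under the PDGF-B promoter, which is active mainly in neurons. The background strain of the aged mice is not given in the sources used here. Age and batch coincide, so levels in young and aged mice cannot be told apart from batch and were not compared. Night-day changes of young and aged wild-type mice were compared, and there a batch effect cancels only if it acts alike at day and night. Each library is listed as a sample of its own, and the p-values measure the spread between these libraries.

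Total counts per library ran from 14632089 to 43885898. The 12 choroid epithelium markers had nonzero counts in every library, with a mean log2 CPM (counts scaled by library size, the usual counts-per-million unit) of 9.74 to 11.15. Markers of neurons, oligodendrocytes and astrocytes (32 genes, averaged as a neural score in log2 CPM) varied far more, from 1.10 to 6.79 across aged libraries and from 1.36 to 3.25 across young ones. Among these markers, Rbfox3 and Ugt8a were at 0 counts in at least 1 library and none was at 0 in all. A set of 3 libraries stood apart from their groups and are named where a result rests on them: young night library 4, J20+ day library 1 and J20+ night library 2. The whole aged wild-type night group had a higher neural score (3.99 to 6.79) than most day libraries (1.10 to 4.89). These samples are bulk tissue, in which fewer cells of a type and less RNA per cell cannot be told apart.

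Tsc22d3, the member whose level followed time of day most clearly below, has 3 annotated starts with promoter windows in RefSeq (GRCm38.p6), and Sgk1 has the only member window that holds a complete glucocorticoid response element. The 250 bases before each of these starts are shown 5′ to 3′ on the strand of the gene, with capitals marking matches to the response element or its half-site. The Tsc22d3 windows lie on the minus strand at chrX:140542669-140542918, chrX:140600523-140600772 and chrX:140548572-140548821, and the Sgk1 window on the plus strand at chr10:21993640-21993889.
Tsc22d3 start 1: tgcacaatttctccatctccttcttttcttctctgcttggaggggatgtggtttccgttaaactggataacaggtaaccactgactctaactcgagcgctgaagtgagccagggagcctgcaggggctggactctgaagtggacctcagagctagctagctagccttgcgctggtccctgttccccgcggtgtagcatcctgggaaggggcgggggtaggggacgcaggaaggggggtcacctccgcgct
Tsc22d3 start 2: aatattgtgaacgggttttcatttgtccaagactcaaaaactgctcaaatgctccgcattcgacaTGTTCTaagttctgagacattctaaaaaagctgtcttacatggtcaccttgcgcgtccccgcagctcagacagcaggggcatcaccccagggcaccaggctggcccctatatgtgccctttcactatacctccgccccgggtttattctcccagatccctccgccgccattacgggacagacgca
Tsc22d3 start 3: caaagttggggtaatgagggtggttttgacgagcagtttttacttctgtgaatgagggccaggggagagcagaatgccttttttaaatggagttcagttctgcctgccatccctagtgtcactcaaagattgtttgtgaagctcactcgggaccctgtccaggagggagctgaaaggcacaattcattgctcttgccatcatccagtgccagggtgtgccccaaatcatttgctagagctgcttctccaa
Sgk1 start 5: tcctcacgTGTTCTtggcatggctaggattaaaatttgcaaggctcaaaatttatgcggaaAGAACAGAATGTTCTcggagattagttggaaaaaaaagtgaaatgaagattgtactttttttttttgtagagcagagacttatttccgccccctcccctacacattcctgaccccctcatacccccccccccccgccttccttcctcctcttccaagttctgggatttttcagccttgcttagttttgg

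RefSeq windows were matched for 8 of the 10 members (not for Nr3c1 and Zbtb16), 17 windows in all, each of 300 bases from 250 before to 50 after a start. The complete palindrome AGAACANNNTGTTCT, a pair of inverted half-sites with 3 bases between, was in 1 member window, at position -189 of Sgk1 start 5, and in 3 of the 32851 windows of the genome (0.00913%).  The half-site AGAACA, which also makes up each arm of the palindrome, was in 5 member windows and in 6233 of all windows (19%). The Tsc22d3 match was at position -185 of Tsc22d3 start 2. The E-box CACGTG, the element bound by the clock factors CLOCK and BMAL1, was in 3 member windows (Bcl6, Fkbp5 and Sgk1) and in 7.15% of all windows. Both strands were searched for exact matches only, so response elements with other letters in an arm were not counted. A match describes the letters of the window only.

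At the level of the list, a single gene, Tsc22d3, passed the test between night and day in aged mice (under every alternative setting in wild-type mice, under 3 of 16 in J20+ mice). In young mice no member passed between night and day or between sleep disruption and undisturbed day. Cdkn1a passed between young night and sleep disruption. Differences are log2 fold changes with their standard errors (SE) from edgeR's quasi-likelihood test, and a gene is called where its Benjamini-Hochberg adjusted p over all genes tested is under 0.05. In young mice, 0 of 10 members were called between night and day, against 0.267% of all 14983 genes tested. At an unadjusted p under 0.05, 3 members (Bcl6, Ddit4 and Cdkn1a) were higher at night, against 9.39% of all genes in either direction. The groups of 1 member did not overlap, against 4.69% of all genes. The members' median difference was -0.06, beside 0.02 over all genes, with 4 positive and 6 negative. DESeq2 called 1 member beside 1.72% of all genes, and limma-voom 3 beside 18.9%.

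No member passed the test between sleep disruption and undisturbed day. There 0 of 10 members were called, and 0 of all genes (0%) by edgeR, DESeq2 or limma-voom. At an unadjusted p under 0.05, 1 member (Cdkn1a, lower) and 2.40% of all genes differed. The groups of the same member did not overlap, against 1.97% of all genes. The members' differences ran from -0.25 to 0.25, with 8 of 10 negative and a median of -0.11, beside 0.00 over all genes. The young night and sleep-disruption groups share their day controls, so they were also compared directly. There 1 of 10 members, Cdkn1a, was called, against 0.380% of all genes, and its groups did not overlap, against 7.83% of all genes.

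In aged wild-type littermates, 1 of 10 members, Tsc22d3, was called between night and day by edgeR, and 2 of 16065 genes (0.0124%) were called at all. The share of all genes depended on the method. It was 8.65% by DESeq2, 51.7% by limma-voom and 26.2% by edgeR on these groups alone. Over the 15 alternative settings 1 to 5 members were called. At an unadjusted p under 0.05, 4 members differed (Tsc22d3, Fkbp5 and Hif3a higher, Klf9 lower), and so did 31.1% of all genes. The groups of 2 members did not overlap, against 26.1% of all genes, so the members' share is no larger than that of the transcriptome. The members' median difference was 0.24, beside 0.03 over all genes. In J20+ mice 1 of 10 members, Tsc22d3, was called, against 0.0436% of all genes, but this call was lost in 13 of 16 alternative settings. Its groups alone did not overlap, against 3.61% of all genes. The J20+ median was -0.03, beside 0.02 over all genes.

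**Figure D1:**
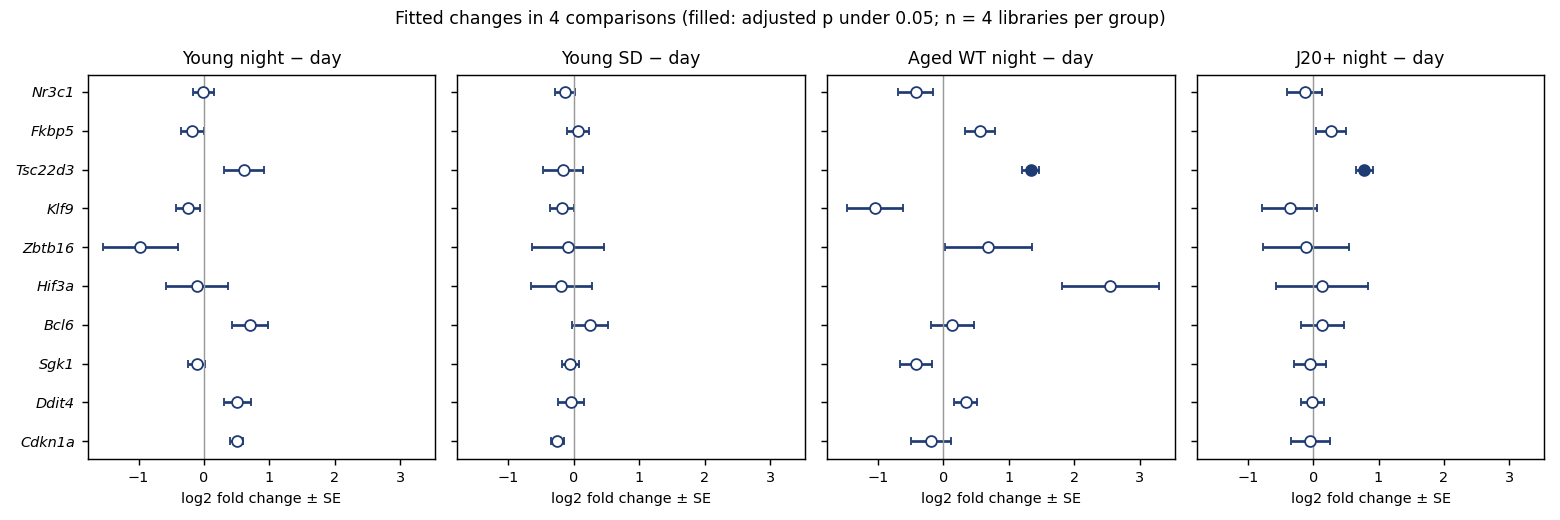
Fitted log2 fold change (x axis, point) with its standard error (bar) for each of the 10 members (y axis) in 4 comparisons, with n = 4 libraries per group and filled points for an adjusted p under 0.05. The filled points are Tsc22d3 in aged wild-type mice (1.33) and in J20+ mice (0.78), and every point of the sleep-disruption panel lies between -0.25 and 0.25.

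The receptor transcript, Nr3c1 (Entrez 14815), in young mice stood at 200 ± 20.3 CPM by day, 183 ± 20 after sleep disruption and 199 ± 53.7 at night (SD, n = 4 each). The night spread came from library 4, at 277 CPM beside 159 to 187 in the other libraries. Its fitted difference was -0.01 ± 0.16 between night and day (adjusted p = 0.987, edgeR) and -0.13 ± 0.16 between sleep disruption and day (adjusted p = 0.861, edgeR). The first of these turned positive without young day library 4 (0.05) and without young night library 1 (0.06), 2 (0.08) or 3 (0.01), and was -0.21 ± 0.10 without young night library 4. No direction can be read for the receptor transcript in young mice.

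Among aged wild-type mice Nr3c1 was at 84.2 ± 24.4 CPM by day and 62.6 ± 10.7 at night (SD, n = 4), a difference of -0.43 ± 0.27 that did not pass the test (adjusted p = 0.252, edgeR). It was -0.24 ± 0.26 without day library 4, the highest of its group, and 0.02 ± 0.29 with the neural score as a covariate. In J20+ mice it was at 101 ± 15.6 CPM by day and 92.3 ± 33.2 at night, a difference of -0.13 ± 0.27 (adjusted p = 0.981, edgeR). J20+ night library 2 alone held 42.5 CPM, beside 107 to 111 in the rest of its group, and without it the difference was 0.12 ± 0.19. At night J20+ mice stood above wild-type littermates by 0.56 ± 0.27 (adjusted p = 0.165, edgeR). The difference was 0.81 ± 0.19 (adjusted p = 0.00433, edgeR) without that library, where 57.7% of all genes were called. With the neural score as a covariate it was 0.06 ± 0.30.

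**Figure D2:**
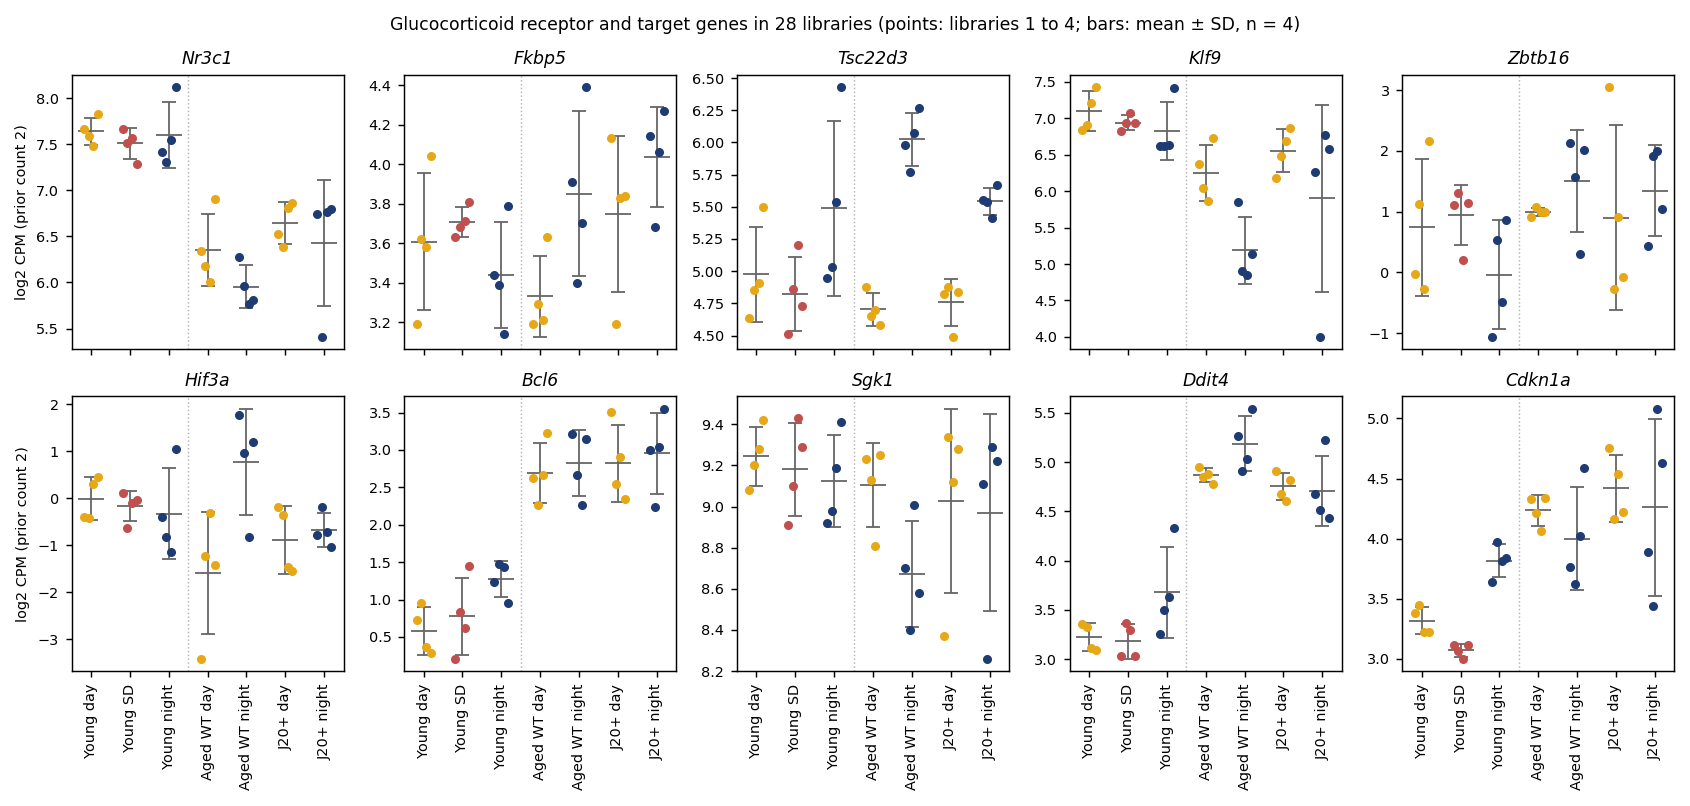
Level of each member in log2 CPM (y axis, prior count 2) in every library of the 7 groups (x axis), with the group mean and SD as bars and a dotted line between young (batch 1) and aged (batch 2) libraries. Night libraries of Tsc22d3 lie above all day libraries of the same genotype in both aged pairs, while 1 young night library is the highest of its group for Nr3c1, Klf9, Tsc22d3 and Ddit4.

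Fkbp5 encodes FKBP51, a co-chaperone that lowers the receptor's affinity for hormone and is induced by it, which closes a feedback loop (Entrez 14229, chr17:28398753-28486149, minus strand, GRCm38.p6). It was at 8.75 to 16.4 CPM in young libraries. Young night was at 10.9 ± 2.10 CPM, young day at 12.4 ± 3.03 and sleep disruption at 13 ± 0.701 (SD, n = 4). The differences of -0.18 ± 0.17 (night, adjusted p = 0.742) and 0.07 ± 0.17 (sleep disruption, adjusted p = 0.914) were within the error of edgeR's test. The aged wild-type day libraries held 9.05, 9.69, 9.17 and 12.3 CPM and the night libraries 14.9, 10.4, 12.9 and 20.8 CPM. These groups overlapped, and the difference of 0.56 ± 0.23 did not pass (adjusted p = 0.145, edgeR). It was 0.34 ± 0.22 without night library 4, and limma-voom called it at 0.65 (adjusted p = 0.0173), beside 51.7% of all genes.

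Fkbp5 in J20+ mice was at 13.7 ± 3.47 CPM by day and 16.5 ± 2.74 at night (SD, n = 4), a difference of 0.27 ± 0.23 (adjusted p = 0.769, edgeR). The J20+ day group exceeded wild-type day by 0.45 ± 0.23 (adjusted p = 0.989, edgeR). The night-day difference of aged wild-type mice exceeded that of young mice by 0.73 ± 0.30, an interaction that did not pass (adjusted p = 0.274, edgeR). This classical reporter of receptor activity gave no called difference in any comparison by edgeR.

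Tsc22d3 (Entrez 14605, chrX:140539528-140600522, minus strand) encodes GILZ, a leucine zipper protein that restrains NF-kB and AP-1 and carries part of the anti-inflammatory action of glucocorticoids. The day libraries of aged wild-type mice held 29.4, 25, 25.8 and 23.7 CPM and the night libraries 63.0, 54.3, 67.2 and 77.3 CPM. Every night library was above every day library, with no library between 29.4 and 54.3 CPM. The difference was 1.33 ± 0.13, or 2.52-fold (adjusted p = 0.000314, edgeR), and it was called under all 15 alternative settings, with values from 1.23 to 1.41. The neural score moved with this comparison (2.96 ± 1.62 by day, 5.77 ± 1.24 at night; SD, n = 4; exact 2-sided permutation p = 0.0571, 0.267 adjusted over 70 marker tests), and all 32 of its markers had a higher mean at night. All 12 choroid epithelium markers had a lower mean at night (10.00 against 10.84; exact permutation p = 0.0286, adjusted 0.267). Ependyma markers stood at 5.65 at night against 4.69 by day, with 7 of 8 higher and the same exact permutation p and adjusted p. With 4 libraries against 4 this permutation test gives no p below 0.0286. The adjusted values therefore cannot show that marker levels were alike. With the neural score as a covariate the Tsc22d3 difference was 1.30 ± 0.16 (adjusted p = 0.00462, edgeR).

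In J20+ mice the Tsc22d3 day libraries held 28.1, 29.3, 22.4 and 28.5 CPM and the night libraries 46.8, 46.5, 42.3 and 51.0 CPM. Again every night library was above every day library. The difference was 0.78 ± 0.13, or 1.72-fold (adjusted p = 0.0451, edgeR). The size held between 0.70 and 0.84 under 16 alternative settings, but the call was lost in 13 of them, including the omission of any 1 of the 8 libraries, RLE scaling (adjusted p = 0.103) and the fit on these groups alone (0.987). It was kept by DESeq2 (8.45e-05), limma-voom (0.00145) and the neural covariate (0.0356). When the outlying pair, J20+ day 1 with J20+ night 2, was omitted it was 0.81 (adjusted p = 0.117). Here the neural score was 3.23 ± 1.95 by day and 2.73 ± 1.62 at night (SD, n = 4).

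By day the J20+ and wild-type levels of Tsc22d3 overlapped (22.4 to 29.3 and 23.7 to 29.4 CPM). At night all J20+ libraries were below all wild-type libraries, at 46.6 ± 3.54 against 65.5 ± 9.54 CPM (SD, n = 4). That difference of -0.49 ± 0.13 did not pass edgeR's test (adjusted p = 0.0917), and without J20+ night library 2 it was -0.48 ± 0.13 and called (adjusted p = 0.00863). The neural score moved with this comparison too, at 2.73 in J20+ against 5.77 in wild-type mice, with all 32 of its markers lower and 11 of the 12 choroid markers higher in J20+ mice. With the neural score as a covariate the Tsc22d3 difference was -0.45 ± 0.16 (adjusted p = 0.787, edgeR). In the comparison of genotypes at night 0 of 10 members were called, against 0.00622% of all genes. At an unadjusted p under 0.05, 4 members (Tsc22d3, Hif3a and Ddit4 lower in J20+, Klf9 higher) and 31.9% of all genes differed, and the groups of 1 member and 7.15% of all genes did not overlap. Without J20+ night library 2 the same comparison called 5 members (Nr3c1, Tsc22d3, Klf9, Hif3a and Sgk1) and 57.7% of all genes, so these member calls do not stand out from the rest. DESeq2 called 3 members beside 18.7% of all genes, and limma-voom 5 beside 72.1%.

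The interaction, J20+ night-day change minus wild-type night-day change, was -0.55 ± 0.18 for Tsc22d3 (adjusted p = 0.359, edgeR), so a smaller night-day change in J20+ mice was not established. Without J20+ night library 2 it was -0.54 ± 0.18 and just passed (adjusted p = 0.0492), as did 20.9% of all genes. No member was called in that interaction, against 0% of all genes. At an unadjusted p under 0.05, 2 members (Tsc22d3 and Hif3a, both negative) and 12.4% of all genes differed, and limma-voom called 3 members beside 33.3% of all genes. Between the genotypes by day 0 of 10 members were called by edgeR, against 0% of all genes. None had an unadjusted p under 0.05, against 1.87% of all genes, and none had groups that did not overlap, against 1.36%. Limma-voom called 1 member there, Nr3c1, beside 14.7% of all genes.

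In young mice Tsc22d3 held 24.9, 28.8, 30.0 and 45.1 CPM by day, 22.8, 29.0, 36.7 and 26.4 CPM after sleep disruption, and 30.8, 32.5, 46.6 and 86.3 CPM at night. The groups overlapped, and the highest value by far was young night library 4. The night-day difference was 0.61 ± 0.31 (adjusted p = 0.571, edgeR), and without that library it was 0.19 ± 0.21 (adjusted p = 0.576). In library 4 the mean log2 CPM of 12 macrophage markers was 3.20, beside 1.47 to 1.90 in the other night libraries, and its neural score was 3.25, beside 1.77 to 2.29. It was the highest of the 4 night libraries for 8 of the 10 members, 10 of the 12 macrophage markers and 27 of the 32 neural markers. Lyve1 was the macrophage marker with 0 counts in at least 1 library. The part of these markers in the member levels of library 4 was not tested.

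After sleep disruption Tsc22d3 was at -0.17 ± 0.31 against day (adjusted p = 0.884, edgeR) and night stood 0.77 ± 0.31 above sleep disruption (adjusted p = 0.423, edgeR), or 0.35 ± 0.21 without young night library 4. The night-day difference of aged wild-type mice exceeded that of young mice by 0.72 ± 0.33, which did not pass (adjusted p = 0.28, edgeR). In that interaction 0 of 10 members were called, against 0% of all genes, while 4 members (Fkbp5, Tsc22d3 and Hif3a positive, Cdkn1a negative) and 17.3% of all genes had an unadjusted p under 0.05. Limma-voom called 4 members beside 35.7% of all genes. Without young night library 4 the Tsc22d3 interaction was 1.11 ± 0.26 (adjusted p = 0.111, edgeR). Averaged over the young, aged wild-type and J20+ contrasts, each taken within its own batch, Tsc22d3 rose at night by 0.88 ± 0.14, or 1.84-fold (adjusted p = 0.000532, edgeR). It was called under all 31 alternative settings of that mean, at 0.75 to 0.95. It was the single member called of 10, against 3.15% of all genes.

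**Figure D3:**
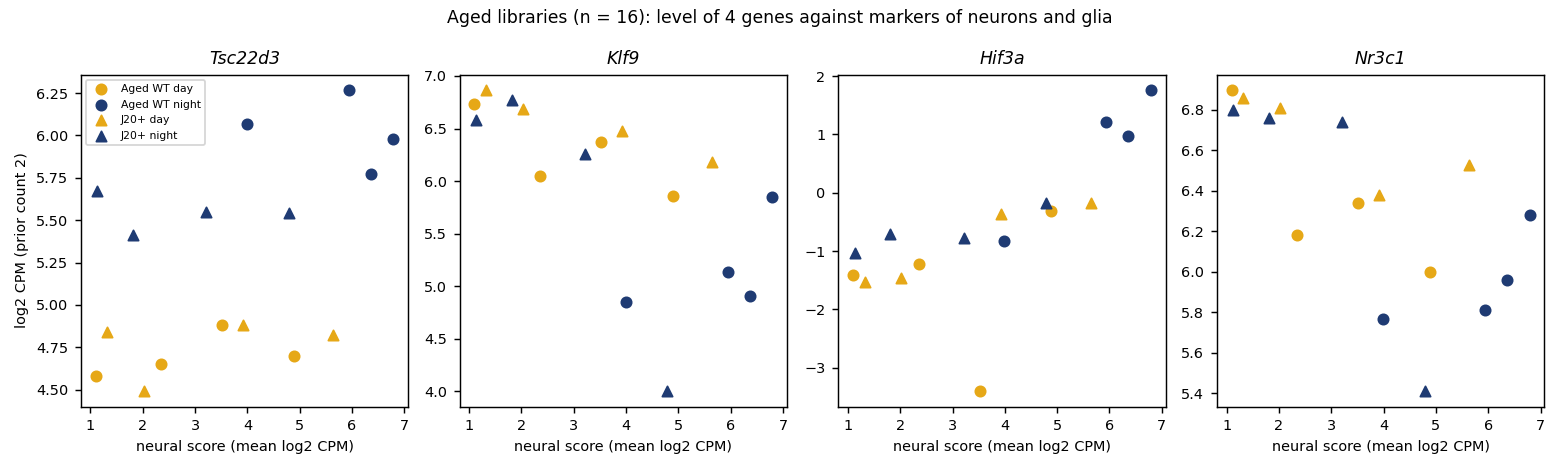
Level of 4 members in log2 CPM (y axis, prior count 2) against the neural score, the mean log2 CPM of 32 neuron, oligodendrocyte and astrocyte markers (x axis), in the 16 aged libraries, coloured by time and shaped by genotype. Night libraries of Tsc22d3 lie above all day libraries. Wild-type night scores of 5.94, 6.36 and 6.79 exceed the highest wild-type day score, 4.89, so no wild-type day library has a like score there. Klf9 and Nr3c1 run lower and Hif3a higher in libraries with a high score.

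Klf9 (Entrez 16601, chr19:23141226-23168129, plus strand) is a zinc finger factor induced by glucocorticoids and thyroid hormone that represses part of the receptor's own programme. In aged wild-type mice it held 82.4, 66.4, 57.8 and 106 CPM by day and 57.7, 30.0, 28.7 and 35.3 CPM at night. All night libraries were below all day libraries, by a margin of 57.7 against 57.8 CPM. The difference of -1.04 ± 0.43 did not pass (adjusted p = 0.145, edgeR), and with the neural score as a covariate it was -0.39 ± 0.48. It was called by limma-voom (adjusted p = 0.00236) and by edgeR on these groups alone (-1.03, adjusted p = 0.0371), which called 51.7% and 26.2% of all genes. In J20+ mice the difference was -0.36 ± 0.42 (adjusted p = 0.882, edgeR), with J20+ night library 2 at 15.9 CPM beside 76.6 to 109 in its group, and it was -0.02 without that library and -0.65 without J20+ night library 3. Genotypes at night differed by 0.97 ± 0.42 (adjusted p = 0.137, edgeR), and by 0.19 ± 0.53 with the neural covariate. Without J20+ night library 2 they differed by 1.31 ± 0.26 (adjusted p = 0.00196, edgeR), where 57.7% of all genes were called. The interaction was 0.68 ± 0.60 (adjusted p = 0.592), with 1.03 and 0.40 after the same omissions, and turned to -0.16 ± 0.67 with the neural covariate.

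In young mice Klf9 held 115, 120, 148 and 172 CPM by day and 98.4, 98.1, 99.4 and 171 CPM at night. Of the night libraries, 3 lay together below every day library and library 4 lay among the highest. The difference was -0.25 ± 0.19 (adjusted p = 0.675, edgeR), with -0.49 ± 0.12 without night library 4 (adjusted p = 0.0822) and -0.13 ± 0.19 without day library 4. Averaged over the 3 cohorts Klf9 was at -0.58 ± 0.20 (adjusted p = 0.0832, edgeR), and at -0.46 ± 0.19 with the neural covariate (adjusted p = 0.197). It was called in 5 of 31 alternative settings. These included DESeq2 and limma-voom, which called 9.92% and 38.1% of all genes. It was also called without young night library 4 (-0.65, adjusted p = 0.047) and without J20+ night library 2 (-0.47, adjusted p = 0.0441). The latter setting called 3.93% of all genes. Klf9 and Tsc22d3, both textbook targets, had mean differences of opposite sign, of which only that of Tsc22d3 passed by edgeR.

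Hif3a (Entrez 53417, chr7:17030993-17062427, minus strand), a hypoxia-inducible factor subunit whose short forms oppose HIF1, was close to the limit of detection, with 0 to 54 counts per library. In aged wild-type mice it held 0, 0.334, 0.710 and 0.280 CPM by day and 3.31, 1.86, 0.469 and 2.22 CPM at night. The library with 0 counts allows up to 0.168 CPM (3 counts of its total, counting error only). The groups overlapped, and the difference of 2.55 ± 0.74 did not pass (adjusted p = 0.144, edgeR) and was 1.31 ± 0.67 with the neural score as a covariate. DESeq2, limma-voom and the fit on these groups alone called it, beside 8.65%, 51.7% and 26.2% of all genes. In J20+ mice the levels were 0.497 ± 0.277 CPM by day and 0.548 ± 0.171 at night (SD, n = 4). Hif3a differed between genotypes at night by -1.84 ± 0.70 (adjusted p = 0.107, edgeR; -0.42 ± 0.68 with the neural covariate), and the interaction was -2.41 ± 1.02 (adjusted p = 0.373; -0.82 ± 0.91 with the covariate).

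In young mice Hif3a was at 0.955 ± 0.324 CPM by day and 0.892 ± 0.757 at night (SD, n = 4), with a fitted value of -0.11 ± 0.47 (adjusted p = 0.954, edgeR) and -0.88 ± 0.33 without young night library 4. The night-day difference in aged wild-type exceeded that in young mice by 2.64 ± 0.90, which did not pass (adjusted p = 0.265, edgeR), and by 1.37 ± 0.74 with the neural covariate. The mean over 3 cohorts was 0.82 ± 0.37 (adjusted p = 0.148, edgeR), or 0.46 ± 0.29 with the covariate.

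Zbtb16 (Entrez 235320, chr9:48651797-48836225, minus strand) encodes PLZF, a zinc finger repressor that glucocorticoids induce strongly in many tissues. It was also scarce, at 0.404 to 4.41 CPM in young libraries and 0.736 to 8.19 CPM in aged ones. Its differences of -0.97 ± 0.57 between young night and day (adjusted p = 0.612, edgeR) and 0.69 ± 0.67 in aged wild-type mice (adjusted p = 0.44) had opposite signs, and neither passed. The first was -0.28 when young day library 4 was left out, and the aged value turned to -0.47 ± 0.70 with the neural covariate. The highest library, J20+ day 1 at 8.19 CPM beside 0.736 to 1.79 in its group, is the J20+ library with the highest neural score (5.64).

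Bcl6 (Entrez 12053, chr16:23965050-23988866, minus strand), a transcriptional repressor of inflammatory and lymphocyte genes, was at 1.45 ± 0.340 CPM by day, 1.72 ± 0.666 after sleep disruption and 2.37 ± 0.397 at night in young mice (SD, n = 4). The difference of 0.71 ± 0.27 between night and day did not pass (adjusted p = 0.456, edgeR), though limma-voom called it (adjusted p = 0.0273), beside 18.9% of all genes. The aged wild-type value was 0.14 ± 0.33 (adjusted p = 0.764, edgeR), at 6.57 ± 1.95 CPM by day and 7.23 ± 2.11 at night. The mean over 3 cohorts was 0.30 ± 0.18 (adjusted p = 0.264, edgeR).

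Sgk1 (Entrez 20393, chr10:21882184-21999903, plus strand), a kinase that raises sodium transport in epithelia through ENaC and other carriers, was the most abundant member when levels were set per kilobase of exon (union of exons, GENCODE M21). Per kilobase, young day tissue held 124 CPM of Sgk1, 28.8 of Klf9, 26.1 of Nr3c1, 7.42 of Tsc22d3 and 0.142 of Hif3a, the least abundant. In aged wild-type day tissue the values were 113 CPM per kilobase for Sgk1, 16.2 for Klf9, 11 for Nr3c1, 5.99 for Tsc22d3 and 0.0493 for Hif3a. Sgk1 kept first place and Hif3a last in both. Sgk1 levels were 609 ± 59.5 CPM by day and 563 ± 88.9 at night in young mice (SD, n = 4), a difference of -0.11 ± 0.13 (adjusted p = 0.792, edgeR). Aged wild-type levels were 554 ± 73.6 and 413 ± 75.2 CPM, a difference of -0.42 ± 0.24 (adjusted p = 0.217, edgeR) that turned to 0.05 ± 0.21 with the neural covariate. Genotypes differed at night by 0.33 ± 0.24 (adjusted p = 0.346, edgeR), which turned to -0.21 ± 0.22 with the covariate. The difference was 0.54 ± 0.27 without wild-type night library 3. Without J20+ night library 2 it was 0.52 ± 0.21 (adjusted p = 0.0449, edgeR), where 57.7% of all genes were called.

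Ddit4 (REDD1; Entrez 74747, chr10:59949675-59951770, minus strand), a stress-induced inhibitor of mTORC1, held 10.2, 9.97, 8.56 and 8.46 CPM by day and 9.46, 11.2, 12.3 and 20 CPM at night in young mice. The groups overlapped, and the highest value was again young night library 4. The difference was 0.51 ± 0.20 (adjusted p = 0.461, edgeR), and 0.24 ± 0.13 without that library. Night exceeded sleep disruption by 0.55 ± 0.20 (adjusted p = 0.368, edgeR), and by 0.29 ± 0.13 without it. Aged wild-type Ddit4 was at 29.1 ± 1.41 CPM by day and 36.8 ± 7.26 at night (SD, n = 4), a difference of 0.34 ± 0.17 (adjusted p = 0.179, edgeR), or 0.21 ± 0.17 without night library 4. The J20+ minus wild-type difference at night was -0.46 ± 0.17 (adjusted p = 0.103, edgeR). The mean over 3 cohorts was 0.25 ± 0.11 (adjusted p = 0.132, edgeR).

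Cdkn1a (Entrez 12575, chr17:29090979-29100722, plus strand) encodes p21, an inhibitor of cyclin-dependent kinases that is also induced by p53. In young mice it held 10.3, 10.8, 9.27 and 9.25 CPM by day, 8.57, 8.25, 7.93 and 8.54 CPM after sleep disruption, and 12.4, 15.6, 13.9 and 14.2 CPM at night. The 3 groups did not overlap at all, in the order sleep disruption, day, night. Of all genes, 1.97% did not overlap between sleep disruption and day, 4.69% between night and day, and 7.83% between night and sleep disruption. The share of all genes with all 3 groups apart was not computed. Night exceeded sleep disruption by 0.75 ± 0.10, or 1.69-fold (adjusted p = 0.00574, edgeR), and this was called under all 15 alternative settings, at 0.70 to 0.80. Night exceeded day by 0.50 ± 0.10 (adjusted p = 0.0767, edgeR), just outside the threshold. DESeq2 called this difference (adjusted p = 0.000323), beside 1.72% of all genes, and so did limma-voom (adjusted p = 0.0114), beside 18.9%. Sleep disruption was at -0.25 ± 0.10 against day (adjusted p = 0.861, edgeR), which did not pass. Without young night library 4 the night-day value was 0.50 ± 0.11. Macrophage markers were also higher at night than after sleep disruption (2.09 against 1.34 in mean log2 CPM; exact 2-sided permutation p = 0.0286, adjusted 0.267). Fibroblast and mural markers were too (3.70 against 3.28, with the same exact permutation p and adjusted p), and endothelial markers stood at 3.40 against 2.89 (exact permutation p = 0.0571, adjusted 0.267). The part of these markers in the Cdkn1a difference was not tested. Without young night library 4, which has the highest macrophage level, the difference was 0.75 ± 0.11.

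For Cdkn1a, aged wild-type libraries held 20, 18.5, 16.6 and 20.1 CPM by day and 13.5, 12.2, 16.1 and 24.1 CPM at night, a difference of -0.19 ± 0.30 (adjusted p = 0.643, edgeR) that turned to 0.06 ± 0.35 with the neural covariate. The aged wild-type minus young difference of the night-day change was -0.71 ± 0.33 (adjusted p = 0.283, edgeR), so a difference between the cohorts was not established. The J20+ groups were at 21.6 ± 4.19 and 21 ± 10.3 CPM (SD, n = 4) by day and night.

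The other genes of the pathway were taken as a list of receptor machinery (25 genes: the mineralocorticoid receptor, hormone-converting enzymes, chaperones, coactivators and corepressors) and a list of 40 further target genes. Of the machinery, 22 genes were tested in young and 23 in aged mice, and 0 were called in the night-day, sleep-disruption and mean comparisons. Of all genes, 0.267% were called in young night, 0% after sleep disruption and 3.15% for the mean. The shares were 0.0124% in aged wild-type night and 0.0436% in J20+ night, so 0 in this list does not stand out. Serpina6, the corticosteroid-binding globulin gene, had 0 counts throughout. The median difference of the machinery was 0.09 in young mice at night, -0.05 after sleep disruption, -0.29 in aged wild-type mice and 0.12 in J20+ mice at night, beside 0.02, 0.00, 0.03 and 0.02 over all genes. The smallest p-values in young night against day belonged to the chaperone genes Hsp90ab1 (0.25 ± 0.10) and Fkbp4 (0.33 ± 0.13), neither of which passed. After sleep disruption Fkbp4 was at 0.16 ± 0.13 and did not pass. At aged wild-type night the smallest p-values belonged to Hsd11b1, the enzyme that regenerates active corticosterone (2.99 ± 0.97, adjusted p = 0.144, edgeR), and the cochaperone gene Dnajb1 (0.41 ± 0.14). Hsd11b1 was scarce and its groups overlapped (0.112 to 1.36 CPM by day, 0.939 to 9.05 at night). The part of the neural score, which was higher in that night group, was not tested for it. In J20+ mice the smallest p-values belonged to Fkbp4 (0.30 ± 0.11) and Stip1 (0.34 ± 0.14). Averaged over cohorts, Fkbp4 (0.25 ± 0.08, adjusted p = 0.0632, edgeR) and Nr3c2, the mineralocorticoid receptor (-0.43 ± 0.16, adjusted p = 0.0965), came closest.

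Of the 40 further targets, 38 were tested in young and 40 in aged mice, and 0 were called in any single night-day or sleep-disruption comparison. In each of these comparisons at most 0.267% of all genes were called. Averaged over the 3 cohorts, 3 of 40 rose at night and 0 fell, against 3.15% of all genes called in either direction. These were the sulfotransferase gene Sult1a1 (0.69 ± 0.09, 1.61-fold, adjusted p = 7.02e-05), the clock gene Per2 (1.12 ± 0.21, adjusted p = 0.00507, edgeR) and the lipid droplet gene Plin4 (0.45 ± 0.11, adjusted p = 0.0327). J20+ night library 2 held 357 CPM of Per2, beside 55.7 to 104 in the rest of its group. The young Per2 groups overlapped (19.4 to 34.5 CPM by day, 31.4 to 41.9 at night). The medians of the target list were 0.18 in young mice at night, 0.07 after sleep disruption, 0.33 in aged wild-type mice, 0.05 in J20+ mice and 0.17 for the mean. The smallest p-values were those of Glul (0.31 ± 0.07) and Nedd9 (0.39 ± 0.10) in young night, the metallothionein genes Mt2 (0.94 ± 0.28) and Mt1 (0.62 ± 0.19) after sleep disruption, Sult1a1 (0.85 ± 0.17) and Arl4d (2.04 ± 0.51) in aged wild-type night, and Sult1a1 (0.99 ± 0.17) and Plin4 (0.69 ± 0.16) in J20+ night. None of these passed in its own comparison by edgeR.

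**Figure D4:**
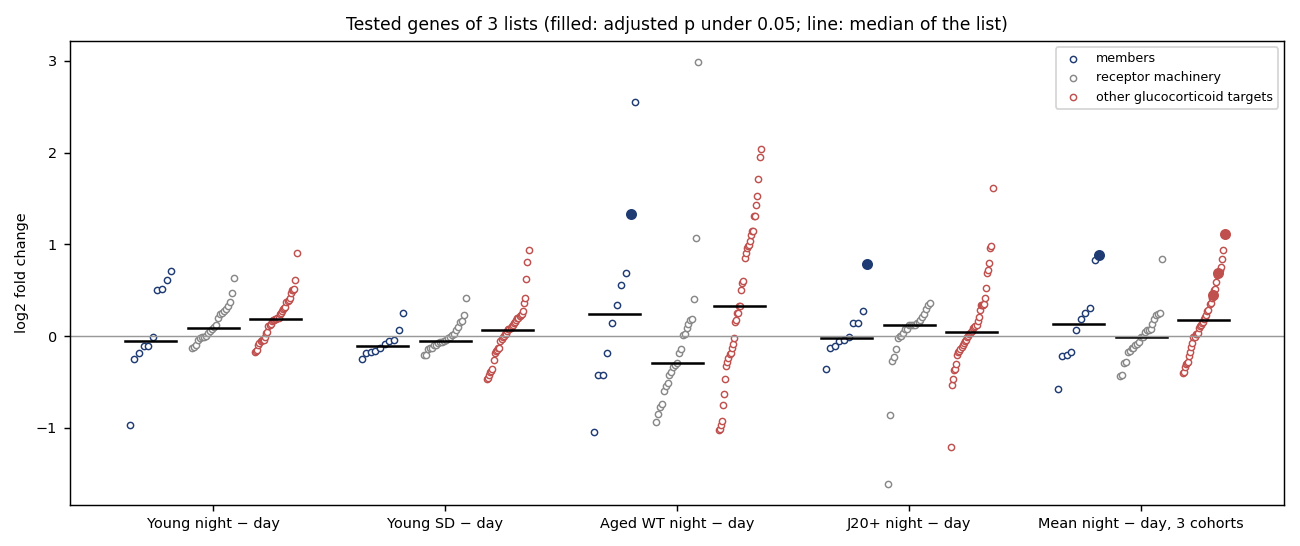
Fitted log2 fold change (y axis) of every tested gene of 3 lists in 5 comparisons (x axis), with the list's median as a line and filled points for an adjusted p under 0.05. The filled points are Tsc22d3 in aged wild-type mice, in J20+ mice and in the mean over 3 cohorts, where Sult1a1, Per2 and Plin4 join it.

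Members did not move as 1 block across libraries. The correlation (Pearson r of log2 CPM, a description over libraries that share batch and composition) of Tsc22d3 with Ddit4 was 0.81 over the 12 young and 0.45 over the 16 aged libraries, and with Fkbp5 0.24 and 0.49. Tsc22d3 and Nr3c1 had r = 0.69 in young and -0.47 in aged libraries, whereas Nr3c1 and Klf9 had 0.68 and 0.94. Of 14712 genes tested in both, those most like Tsc22d3 by the lower of both r values were Tra2a (0.88 young, 0.83 aged), Hspa1a (0.87 and 0.83), Purg (0.83 and 0.82) and Tlnrd1 (0.82 and 0.80). Those most like Nr3c1 were Skil (0.96 and 0.98), Ptbp3, Dcaf10 and Lysmd3 (each 0.96 and 0.96). No other member was among the first 4 of either list. Young night library 4 was the highest of the 12 young libraries for Tsc22d3 (86.3 CPM), Nr3c1 (277 CPM) and Ddit4. J20+ night library 2 was the lowest of the 16 aged libraries for Nr3c1 (42.5 CPM) and Klf9 (15.9 CPM). The part of these libraries in the r values above was not tested, so the r values are not read as shared regulation.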

How the data were processed

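Poly(A) RNA of 28 choroid plexus samples was made into stranded libraries and sequenced on a NovaSeq, per the labels' protocols. The submitters' processing notes list, without roles, the build mm10 and the tools featureCounts 2.0.1, HISAT2 2.2.1, DESeq2, Picard 2.18.2, FastQC 0.11.8 and cutadapt. Strand setting, multiply aligned reads and annotation version were not given in the sources used here, and reads shared with overlapping or near-identical genes could be split. The authors deposited whole-number read counts for each Entrez gene, not normalized, in a table for young and a table for aged mice, and all 28 columns were used. Identifiers were matched to RefSeq symbols (25275 of 27179, 93.0%).

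Counts were filtered with filterByExpr, scaled by TMM and fitted in edgeR 4.0.16 under R 4.3.3 (robust glmQLFit, glmQLFTest), on 12 young, 16 aged or all 28 libraries. SE is the log2 fold change over the square root of F. CPM are TMM-scaled within young or aged libraries (prior count 2 on the log2 scale). Marker means were compared by exact 2-sided permutation. The procedure was tested on simulated counts, with 50 genes changed per fold. In young night against day it recovered 40.0% of 1.5-fold and 88.0% of 2-fold changes. In aged wild-type night against day it recovered 4.00% and 44.0%, so a change that did not pass there is not shown to be absent. Each run gave 6 false calls. Alternatives were RLE scaling, no filter, 10 CPM in 4 libraries, DESeq2 1.42.0, limma-voom (limma 3.58.1), the neural covariate, fitting only the compared groups and leaving out each library. The joint omission of J20+ day library 1 and J20+ night library 2 was chosen after seeing the data.

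The members and gene lists were chosen with earlier results of these data known. Named genes are all 10 members, every called gene of the other lists (at most 6 per comparison) or the 2 with the smallest p, and the 4 genes most like Tsc22d3 and Nr3c1. A gene that this rule also names is not reported here. Replicate numbers follow record order and pair no animals.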

Additional observations from a re-analysis of the deposited data

Results flagged for a closer look

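Within groups of 4, a member's highest or lowest library was set against the gap to its neighbour as a share of the group's range (Dixon's ratio, at its 95% critical value). Of 70 such checks 4 passed, and chance gives about 1 in 20. Nr3c1 in J20+ night library 2 was the lowest of its group at 42.5 CPM (ratio 0.956), and that library also had the highest neural score of its group (4.79). Klf9 in young night library 4 was the highest at 171 CPM (ratio 0.975), in the library with the highest macrophage marker mean of its group (3.20). Tsc22d3 in J20+ day library 3 was the lowest at 22.4 CPM (ratio 0.847), and without it the J20+ night-day difference was 0.70 (adjusted p = 0.153, edgeR). Zbtb16 in young sleep-disruption library 3 was the lowest at 1.08 CPM (ratio 0.830). The part of the marker levels in these values was not tested.

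Cdkn1a differed between young night and young sleep disruption by 0.75 (log2, edgeR adjusted p = 0.00574), with opposite signs of its differences from the shared day group (0.50 and -0.25).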

How the results depend on the processing

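No paired analysis was possible because replicate numbers were given in record order and tie no library to another. Of 977 alternative values for the 53 single-gene results, 897 kept their direction and side of the threshold, 45 passed newly, 13 (all Tsc22d3 in J20+ night against day) no longer passed and 22 changed sign. The count of members called moved from 0 to 1 (DESeq2) and 3 (limma-voom) in young night against day, and from 1 to 3 in young night against sleep disruption (limma-voom). In aged wild-type night against day it moved from 1 to 2 (DESeq2), 5 (limma-voom) and 3 (these groups alone). In J20+ night against day it moved from 1 to 0 with RLE scaling, no filter, 10 CPM in 4 libraries, these groups alone, and J20+ day 1 and night 2 left out together, and stood at 0 to 0 over the 8 single omissions. Between genotypes it moved from 0 to 1 by day (limma-voom), and at night to 3 (DESeq2), 5 (limma-voom), 5 without that pair and 0 to 5 over single omissions. The genotype interaction went to 3 (limma-voom) and 0 to 1 over single omissions, the aged minus young interaction to 4 (limma-voom), and the mean over cohorts from 1 to 2 (DESeq2), 7 (limma-voom), 2 without the pair and 1 to 2 over single omissions (2 without young night 4 or J20+ night 2). The cause of these moves was not tested. Calls over all genes rose with the same settings: limma-voom called 18.9% of all genes in young night against day, 7.36% against sleep disruption, 51.7% in aged wild-type mice, 14.7% and 72.1% between genotypes by day and night, 33.3% and 35.7% in the genotype and the aged minus young interactions and 38.1% in the mean. DESeq2 called 1.72%, 8.65%, 18.7% and 9.92% in young night against day, aged wild-type night against day, genotypes at night and the mean, and the aged wild-type fit on these groups alone called 26.2%.

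Signs changed for Nr3c1 in young night against day (0.01 with the 10 CPM filter; -0.21 to 0.08 over single omissions), Hif3a there (-0.88 to 0.14), Fkbp5 after sleep disruption (-0.06 to 0.23) and Tsc22d3 after sleep disruption (0.12 with limma-voom; -0.30 to 0.04). In aged wild-type night against day they changed for Bcl6 (-0.01 to 0.32 over single omissions) and, with the neural covariate, for Nr3c1 (0.02), Zbtb16 (-0.47), Sgk1 (0.05) and Cdkn1a (0.06). The same covariate turned Sgk1 between genotypes at night (-0.21) and Klf9 in the genotype interaction (-0.16). Nr3c1 in J20+ night against day ran from -0.27 to 0.12 over single omissions and was 0.07 without the pair.

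Counts over all genes moved from 40 to between 13 and 2829 in young night against day, from 57 to 16 and 1103 against sleep disruption, from 2 to 2 and 8299 in aged wild-type mice, from 7 to 1 and 274 in J20+ mice, from 0 to 0 and 2363 between genotypes by day, from 1 to 0 and 11589 at night, from 0 to 0 and 5351 in the genotype interaction, from 0 to 0 and 5916 in the aged minus young interaction, and from 523 to 200 and 6328 for the mean. Hif3a, with 0 to 54 counts per library, rests on the fewest counts in aged wild-type mice.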

Other observations

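Of the further target genes, 4 of 38 had groups that did not overlap between sleep disruption and day (1.97% of all genes), 3 of 38 between young night and sleep disruption (7.83%), and 16 of 40 between night and day in aged wild-type mice (26.1%), none of them called by edgeR there. The genes named here were picked after their values were seen. After sleep disruption the metallothionein genes Mt1 (3.50 to 4.92 CPM against 2.29 to 3.39 by day) and Mt2 (0.568 to 0.991 against 0.291 to 0.543) and the lipoprotein lipase inhibitor gene Angptl4 (0.81 ± 0.28, SE) stood above undisturbed day, each with an adjusted p of 0.861. The annexin gene Anxa1 went the other way, at 2.83 to 4.10 CPM after sleep disruption against 4.11 to 6.56 CPM by day. Against young night Mt2 was higher after sleep disruption in every library, at -1.01 ± 0.28 for night minus sleep disruption (adjusted p = 0.205). Per1, which is both a clock gene and a receptor target, was at 58.2 to 68.8 CPM by day and 111 to 166 CPM at night in aged wild-type mice (1.15 ± 0.31, adjusted p = 0.144), and at 0.17 ± 0.29 in young mice (adjusted p = 0.857).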
